A study of Mus musculus with 12 samples.

Results

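The insulin-like growth factor (IGF) axis was followed in macrophages and fibroblasts through 10 genes, chosen by symbol: the ligands Igf1 and Igf2, the receptors Igf1r and Igf2r, and the binding proteins Igfbp2 to Igfbp7. All 10 were among the 32544 genes of the count table, 9 had a count in at least 1 of the 12 libraries, and 8 had enough counts to be tested. In libraries of fibroblasts kept in medium from macrophages labelled PHD2cko, Igf1 and Igf2 messages rose and Igfbp4 fell. Macrophage markers rose in the same libraries (21 of 23 called higher), and Igf1, unlike Igf2, was abundant in macrophages. How far macrophage RNA adds to the Igf1 rise was not tested beyond the subtractions given below. In the macrophages themselves, 4 genes had more than 12 counts per library (Igf1, Igf1r, Igf2r and Igfbp4). These did not pass the test for the label in the fit over all 12 libraries, and 3 of them did when BMDMs were fitted alone.

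The study asked how loss of the oxygen sensor prolyl hydroxylase domain protein 2 (PHD2, encoded by Egln1) in myeloid cells acts on macrophages and, through their medium, on fibroblasts. Bone marrow-derived macrophages (BMDMs) came from LysMCre mice (WT) or from mice of that background with conditional PHD2 knockout (PHD2cko), so both groups carry the LysMCre transgene, which is active in myeloid cells (neutrophils as well as macrophages). Their RNA was taken 24 h after seeding. The fibroblasts were the established mouse line NIH/3T3, serum-starved and then kept for 72 h in medium conditioned by WT or PHD2cko BMDMs. The medium also held L929-conditioned medium, and whether the sequenced cultures had seen normal oxygen or hypoxia is not stated. Each of the 4 groups held 3 libraries. The sources do not say whether these came from separate animals or cultures, so that the p-values measure the spread between libraries, which may be technical. The age of the mice is not given in the sources used here.

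Library totals ran from 15516465 to 25199770 estimated counts, at which 3 counts correspond to 0.109 to 0.205 normalized counts per 1e6 counts (CPM). Egln1 was higher, not lower, in the BMDM libraries labelled PHD2cko (68.3 to 71.6 CPM) than in WT (54.7 to 55.8 CPM). Gene-level counts do not show which exons were read, and the label is used below as given. The identity of both cell types was checked with marker lists. The 23 macrophage markers summed to 41589 to 48069 CPM in BMDMs, 34.6 to 41.0 CPM in fibroblasts in WT medium and 247 to 1051 CPM in fibroblasts in PHD2cko medium, where 21 of the 23 were called higher. No macrophage marker was at 0 in every library of a fibroblast group. The 16 fibroblast markers summed to 26976 to 35505 CPM in 3T3 libraries and to 17.4 to 27.3 CPM in BMDMs. Replicate 1 of the fibroblasts in WT medium stood apart from the other two of its group, since a chi-square statistic divided by its degrees of freedom was 23.1 and 24.9 against them, and 2.29 between replicates 2 and 3.

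As background, IGF-1 and IGF-2 are secreted peptides that drive growth and survival through the receptor tyrosine kinase IGF1R. IGF2R, the mannose 6-phosphate receptor, carries lysosomal enzymes and removes IGF-2 from the cell surface without passing on a growth signal. IGF binding proteins hold the ligands in the extracellular fluid, and the protease PAPP-A, which the stanniocalcins inhibit, frees IGF from IGFBP4. Macrophages are a known source of IGF-1 in tissue repair, and fibroblasts both make and answer IGFs.

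Per gene, Igf1 (ENSMUSG00000020053.18) lies on GRCm38 at chr10:87858265-87937042 on the plus strand and Igf2 (ENSMUSG00000048583.16) at chr7:142650766-142666816 on the minus strand. Igf1r is at chr7:67952827-68233668 and Igf2r at chr17:12682406-12769664. Igfbp2 and Igfbp5 are neighbours on chromosome 1, at chr1:72824503-72852474 and chr1:72857932-72874884. Igfbp3 and Igfbp4 share chromosome 11, at chr11:7206086-7213923 and chr11:99041244-99054392. Igfbp6 is at chr15:102144362-102149511 and Igfbp7 at chr5:77349240-77408041. In the annotation Igf1, Igf2, Igf2r and Igfbp7 overlap antisense genes (Igf1os, Igf2os, Airn and Gm34648), Igf2 also shares sequence with the readthrough gene Gm49394, and Igfbp7 overlaps Polr2b. Whether the reads were stranded is not stated, so the share of such neighbours in these counts is uncertain.

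The windows of 250 bases before a RefSeq start (GRCm38.p6) are printed for Igf2 and Igfbp4 because these genes moved in opposite directions in the fibroblasts, 5′ to 3′ on the strand of the gene and with motif matches in capitals. The Igf2 window is that of the most 3′ of its 4 RefSeq starts, at chr7:142657497-142657746, where 2 GENCODE transcripts begin within 50 bases, and its capitals mark 2 GC boxes. The Igfbp4 window is at chr11:99040994-99041243, and its capitals mark a TATA box.
Igf2: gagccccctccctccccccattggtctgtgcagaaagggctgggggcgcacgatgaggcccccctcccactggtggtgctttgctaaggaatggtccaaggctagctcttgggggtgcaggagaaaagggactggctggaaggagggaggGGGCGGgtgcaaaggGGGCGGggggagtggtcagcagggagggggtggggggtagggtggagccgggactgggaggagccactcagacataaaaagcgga
Igfbp4: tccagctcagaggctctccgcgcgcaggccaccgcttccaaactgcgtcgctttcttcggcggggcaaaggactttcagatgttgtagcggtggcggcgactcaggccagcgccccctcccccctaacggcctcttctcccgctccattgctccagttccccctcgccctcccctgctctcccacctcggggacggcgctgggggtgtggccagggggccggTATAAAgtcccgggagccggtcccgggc

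The 5 motifs named here were searched on both strands. The GC box GGGCGG was held by 32.7% of 32851 RefSeq promoter windows of this length, and the TATA box TATAAA by 12.4%. The printed Igf2 and Igfbp4 windows held no match to the hypoxia response cores ACGTG (16.6% of windows) and GCGTG (28.2%), nor to the AP-1 motif TGANTCA (6.75%). Of the other 3 Igf2 windows, the one at chr7:142658805-142659054 held 1 ACGTG and 1 GC box, and the remaining ones held none of the motifs. A match is a description of letters only, and gene-level counts do not tell which Igf2 start was used. The window of the RefSeq start of Igf1 is not printed, since it lies inside an untranslated first exon of other Igf1 transcripts. That Igf1 window held 1 GCGTG and 1 AP-1 match and no ACGTG, and 0 GENCODE transcripts begin within 50 bases of its start. Windows of the members other than Igf1, Igf2 and Igfbp4 are not described.

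The first comparison set WT BMDMs against fibroblasts in WT medium, to show which cell made which part of the axis. Igf1 was higher in macrophages, and fibroblasts held nearly all of the Igf2 message. Macrophages carried a single abundant binding protein message, Igfbp4, while fibroblasts carried Igfbp6, Igfbp5, Igfbp4 and Igfbp7, and both receptors were lower in macrophages. Igf1 and Igfbp4 were called higher and Igf1r and Igf2r lower in BMDMs, on a background of 40.4% of all 14285 tested genes called higher and 44.9% called lower. Igf2, Igfbp5, Igfbp6 and Igfbp7 passed the filter on low counts through the fibroblasts and so had to differ; their levels are given as a description. Cell type and culture (medium, time) cannot be told apart here, and in bulk RNA neither can fewer cells of a type and less message per cell.

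Igf1 was at 612, 580 and 576 CPM in WT BMDM replicates 1, 2 and 3 and at 18.6, 17.4 and 20.3 CPM in the fibroblasts in WT medium. The groups did not overlap, and the log2 fold change was 4.98 (SE 0.111, adjusted p = 9.7e-14, edgeR quasi-likelihood test). Igf2 went the other way, with 0 to 1 counts per BMDM library against 998, 1135 and 1328 CPM in fibroblasts. Computed against a floor of 3 counts per library, Igf2 was at least 6192-fold higher in fibroblasts.

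Of the receptors, Igf1r, through which both ligands signal, was at 31.2, 33.5 and 31.6 CPM in WT BMDMs and at 166, 208 and 226 CPM in fibroblasts, a log2 difference of -2.64 (SE 0.101, adjusted p = 2.1e-11, edgeR). Igf2r was at 324, 330 and 326 CPM in BMDMs and at 425, 607 and 664 CPM in fibroblasts, a log2 difference of -0.79 (SE 0.119, adjusted p = 3.4e-05, edgeR). Fibroblast replicate 1 was the lowest of its group for both receptors.

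Among the binding proteins, Igfbp4 was at 192, 192 and 190 CPM in WT BMDMs and at 110, 90.7 and 93.4 CPM in fibroblasts (log2 fold change 0.97, SE 0.0717, adjusted p = 2.5e-08, edgeR). The other binding proteins with counts belonged to the fibroblasts. Igfbp6, which prefers IGF-2 over IGF-1, had 10 to 12 counts per WT BMDM library and 4472 to 6891 per fibroblast library, a log2 difference of -8.56 (SE 0.124). Igfbp5, a binding protein that also attaches to matrix, had 0 to 1 counts in WT BMDMs and was at least 619-fold higher in fibroblasts. Igfbp7, a distant relative with low affinity for IGFs, had 0 to 5 counts in WT BMDMs and 332 to 516 in fibroblasts. Igfbp2 was at 0 counts in all 12 libraries and Igfbp3 at no more than 2 counts in any, both under the floor of 3 counts per library, so neither was tested or detectable at this depth.

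**Figure D1:**
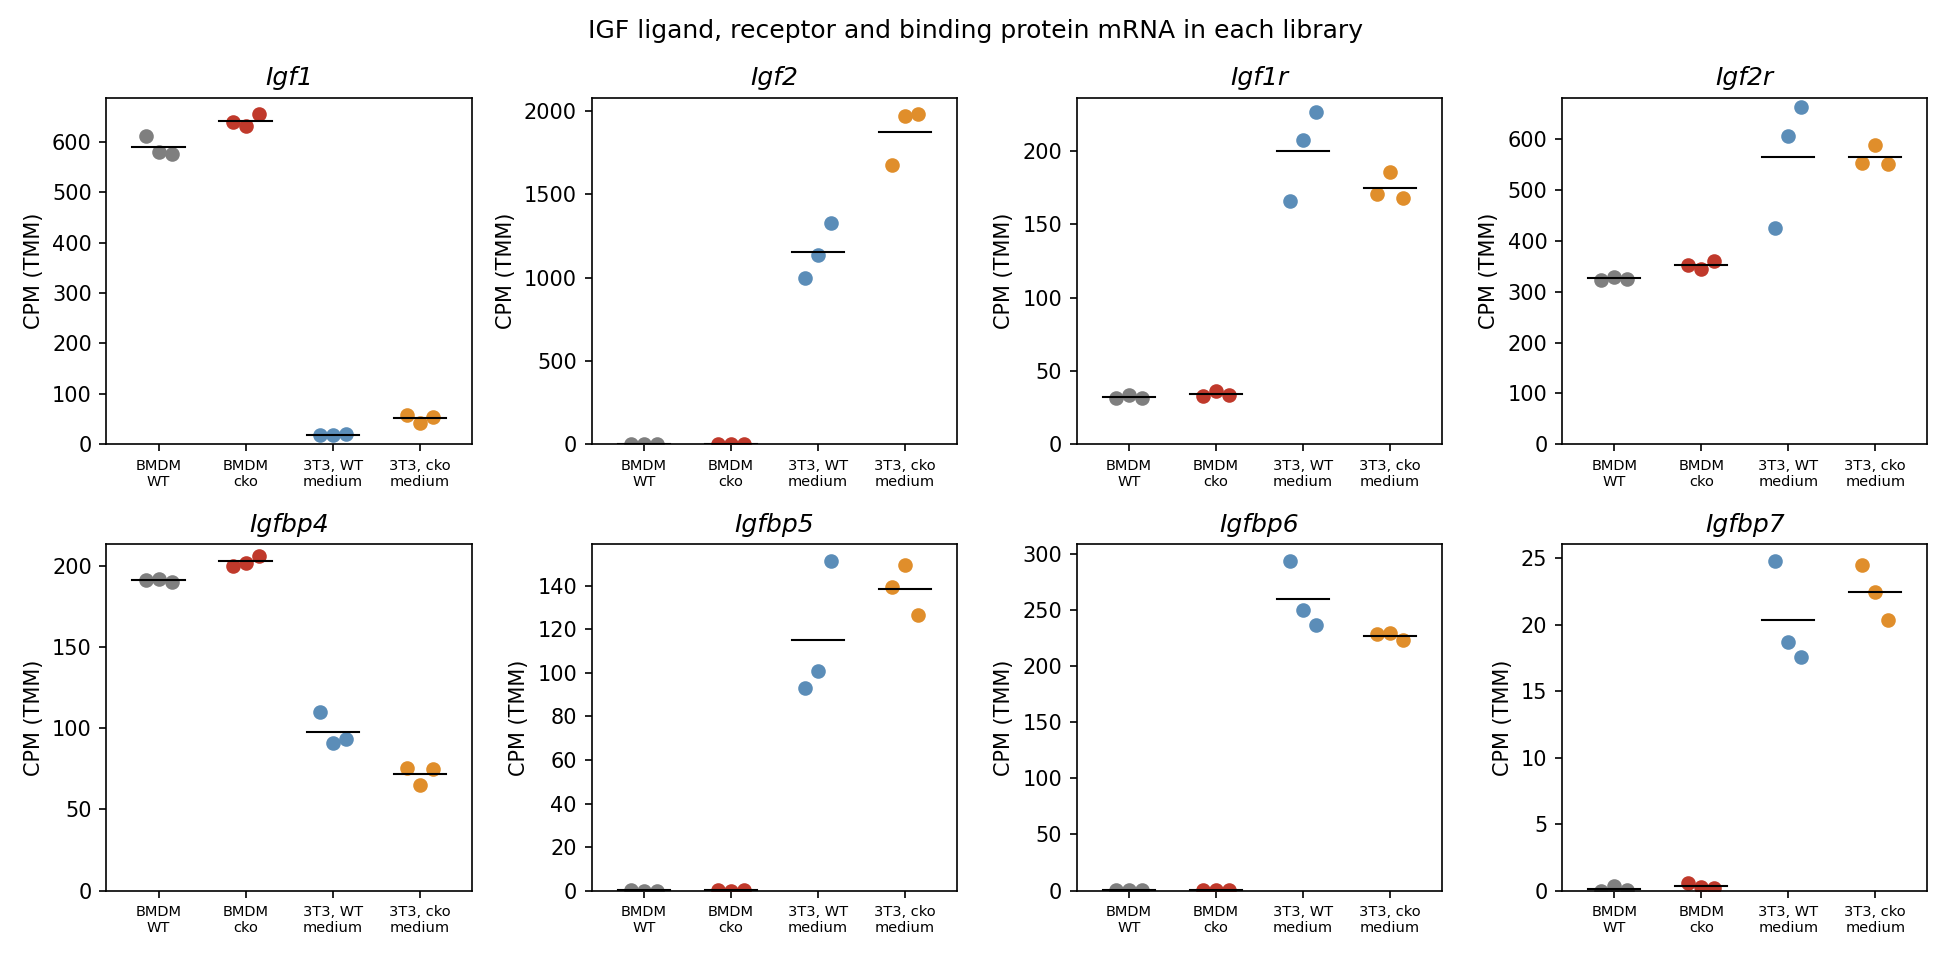
TMM-normalised CPM (y axes, linear from 0, each gene on its own scale) of the 8 tested genes in every library of the 4 groups (x axes, cko = PHD2cko); points are libraries and lines group means. Igf1 and Igfbp4 sit higher in BMDMs, the other 6 genes in 3T3 fibroblasts, and Igf1, Igf2 and Igfbp4 are the panels in which both fibroblast groups separate with an adjusted p under 0.05.

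Levels of different genes can be compared only per transcript length. On the scale of CPM per kb of the longest coding transcript, the order in fibroblasts in WT medium was Igf2 (244 ± 35.1, SD, n = 3), Igfbp6 (234 ± 26.9), Igf2r (63.6 ± 14.0), Igfbp4 (25.6 ± 2.71), Igfbp5 (19.2 ± 5.28), Igf1r (17.5 ± 2.72), Igfbp7 (17.0 ± 3.26) and Igf1 (2.66 ± 0.206). On this scale Igf2 and Igfbp6 did not differ beyond their spread, and nor did Igfbp5, Igf1r and Igfbp7 among themselves. In WT BMDMs the order was Igf1 (83.6 ± 2.79), Igfbp4 (49.95 ± 0.299), Igf2r (36.7 ± 0.346) and Igf1r (2.82 ± 0.108), with each step larger than the spread. These levels depend on the transcript taken. With the median in place of the longest coding transcript, Igf1 was at 431 CPM per kb in WT BMDMs and in fibroblasts in WT medium Igfbp4 was at 132, above Igf2r, and Igf2 at 461, above Igfbp6 at 234.

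Within the binding proteins, summed per kb of the longest coding transcript, Igfbp4 made up 98.6% ± 0.307 (SD, n = 3) of the message in WT BMDMs. In fibroblasts in WT medium Igfbp6 made up 79.0% ± 1.94, Igfbp4 8.65% ± 0.196, Igfbp5 6.61% ± 2.27 and Igfbp7 5.71% ± 0.521. In PHD2cko medium these shares were 77.1% ± 0.639 for Igfbp6, 7.09% ± 0.636 for Igfbp4, 8.72% ± 0.578 for Igfbp5 and 7.07% ± 0.505 for Igfbp7. The share of Igfbp4 was lower in all 3 libraries in PHD2cko medium (6.37 to 7.56%) than in WT medium (8.43 to 8.81%), and that of Igfbp7 higher in all 3 (6.59 to 7.60% against 5.28 to 6.29%). The sizes of these shares depend on the transcript taken. With the median coding transcript, Igfbp6 made up 58.0% ± 1.66 and Igfbp4 32.8% ± 0.548 in WT medium, and 59.4% ± 1.35 and 28.2% ± 1.98 in PHD2cko medium. Shares within a sum are tied to each other and were not tested.

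**Figure D2:**
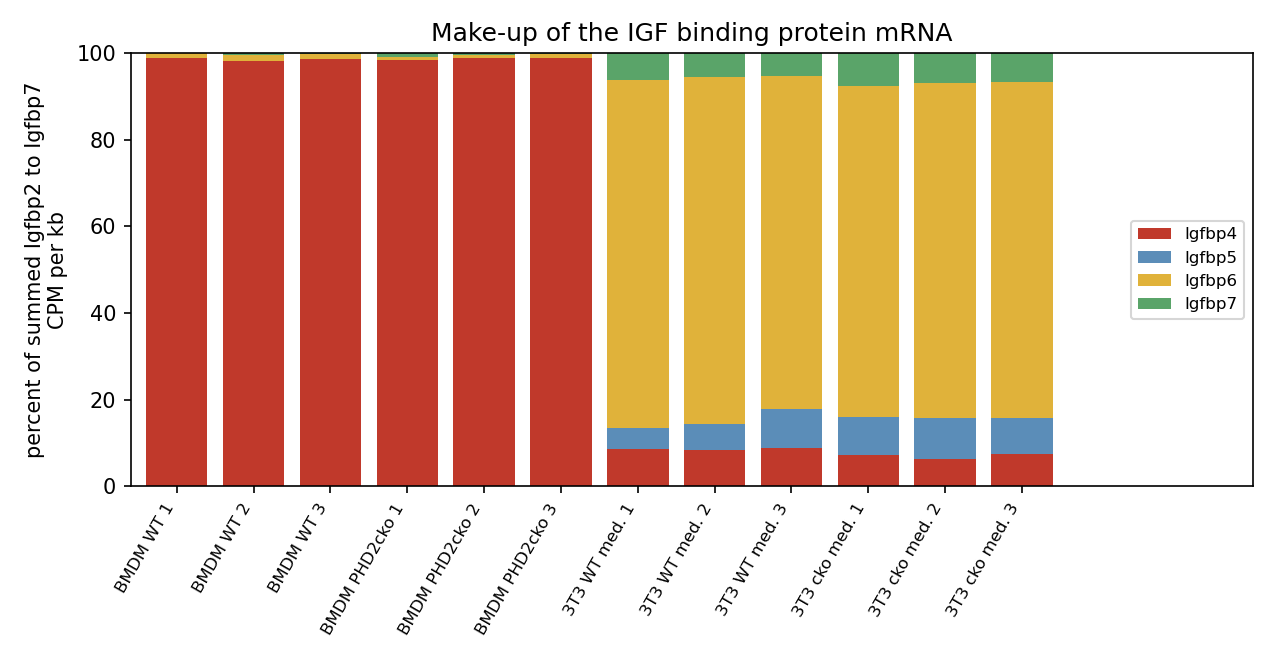
Share (y axis, percent) of Igfbp4 to Igfbp7 in the summed Igfbp2 to Igfbp7 message, as CPM per kb of the longest coding transcript, in each of the 12 libraries (x axis, cko med. = PHD2cko medium). Igfbp4 fills about the whole bar in the 6 BMDM libraries, and Igfbp6 takes 76.4 to 80.3% in the 6 fibroblast libraries. With the median coding transcript it would take 56.1 to 61.0%.

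The second comparison asked whether the PHD2cko label changed the axis in the macrophages that conditioned the medium. Igf2, Igfbp5, Igfbp6 and Igfbp7 had at most 12 counts in any BMDM library and passed the filter through the fibroblasts, so the comparison could be made for 4 genes, Igf1, Igf1r, Igf2r and Igfbp4. Of these, 0 passed the threshold of 0.05 in edgeR over all 12 libraries, 0 had an unadjusted p under 0.05, and 0 were called by the Wald test of DESeq2 or by limma-voom. The background was 3.38% of genes called higher and 3.35% called lower. Igf1, Igf2r and Igfbp4 were higher in all 3 libraries labelled PHD2cko than in all 3 WT libraries, which makes 3 of 4 without overlap where 31.9% of all tested genes had none.

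Igf1 was at 612, 580 and 576 CPM in WT replicates 1, 2 and 3 and at 640, 631 and 655 CPM in those labelled PHD2cko. The groups lay close together without overlap, with a log2 fold change of 0.12 (SE 0.0903, 95% interval -0.07 to 0.32, adjusted p = 0.549, edgeR). Igfbp4 was at 191 ± 1.15 CPM in WT and 203 ± 3.11 CPM in PHD2cko (SD, n = 3 each), which gave a log2 fold change of 0.09 (SE 0.0705, adjusted p = 0.599, edgeR). Igf2r was at 326 ± 3.08 and 352 ± 8.68 CPM, with a log2 fold change of 0.11 (SE 0.119, adjusted p = 0.710, edgeR). Igf1r was at 32.1 ± 1.23 and 34.4 ± 1.91 CPM and overlapped (adjusted p = 0.728). Igfbp6 had 10 to 12 counts per library in WT and 6 to 10 in PHD2cko, and Igf2, Igfbp5 and Igfbp7 had at most 9 in any BMDM library.

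These small differences depended on which libraries set the spread. With the 6 BMDM libraries fitted alone, 3 of the 4 genes were called, Igf1 (0.12, adjusted p = 0.0112), Igf2r (0.11, adjusted p = 0.0039) and Igfbp4 (0.09, adjusted p = 0.0328), with the log2 fold changes in front of each p. In that fit 2534 genes were called in all, in place of 961.

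The third comparison, fibroblasts in PHD2cko against WT medium, gave the changes of the axis. Both ligand messages rose, Igf1 by 2.79-fold and Igf2 by 1.62-fold, and Igfbp4 fell to 0.734 of its level. The other 5 tested genes, both receptors and Igfbp5 to Igfbp7, did not pass the test. With 2 called higher and 1 lower of 8, the background was 8.93% of all tested genes called higher and 6.75% called lower. The libraries did not overlap for 4 of the 8 (Igf1, Igf2, Igfbp4 and Igfbp6), against 31.9% of all tested genes. The median log2 fold change of all tested genes was -0.0046.

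Igf2 was at 998, 1135 and 1328 CPM in WT medium and at 1674, 1968 and 1980 CPM in PHD2cko medium, replicates 1, 2 and 3. The lowest library in PHD2cko medium stood above the highest in WT medium. The log2 fold change was 0.70 (SE 0.108, adjusted p = 0.000986, edgeR), and it stayed between 0.63 and 0.81 when any 1 library was left out. In BMDMs Igf2 was at 0 to 1 counts per library.

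Igf1 was at 18.6, 17.4 and 20.3 CPM in WT medium (366, 480 and 384 counts) and at 58.8, 42.6 and 55.1 CPM in PHD2cko medium (1144, 736 and 1137 counts). All 3 libraries in PHD2cko medium lay above all 3 in WT medium, with replicate 2 the lowest. The log2 fold change was 1.48 (SE 0.103, adjusted p = 1.1e-05, edgeR). Igf1 in PHD2cko medium stayed under Igf2, at 7.39 ± 1.20 against 397 ± 36.7 CPM per kb (SD, n = 3), and made up 1.85% ± 0.435 of the ligand message per kb, in place of 1.09% ± 0.126 in WT medium (longest coding transcript). With the median coding transcript the shares of Igf1 were 4.90% ± 1.12 and 2.92% ± 0.333.

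Macrophage markers moved with the rise of Igf1, and the BMDM level of Igf1 was 27.3 times that of fibroblasts in WT medium, over the limit of 10 set for genes of macrophage type. Set against the BMDM sum of the matching label, the 23 markers gave a macrophage share of 0.0810% ± 0.00709 in WT medium (SD, n = 3). In PHD2cko medium the share was 2.49, 0.584 and 2.21% in replicates 1, 2 and 3, so it was lowest in the same library as Igf1. This share times the BMDM level of Igf1 came to 252, 52.9 and 239 counts, or 22.0, 7.19 and 21.0% of the Igf1 counts in these libraries.

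In WT medium, Igf1 stood at 3.58 to 4.16% of its BMDM level, where the median marker stood at 0.0410 to 0.0573% of its own. Its rise above WT medium was 7.45, 4.28 and 6.67% of the BMDM level in replicates 1, 2 and 3. For the median marker the rise was 3.40, 0.712 and 2.88%. Single markers rose as far as Igf1 in replicates 1 and 3 (Cd14, Cx3cr1 and Lilrb4a, 3 of 23), and none did in replicate 2, where Cx3cr1 came closest with 3.89%. The markers differ among themselves by more than 10-fold in this measure, from 1.21 to 14.0% in replicate 1.

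With the share subtracted, Igf1 was at 47.1, 39.7 and 44.5 CPM in PHD2cko medium and at 18.1, 16.9 and 19.8 CPM in WT medium, which left a log2 fold change of 1.27 (adjusted p = 8.4e-07, edgeR). With the share read from the median marker, an alternative added after the values were seen, Igf1 was at 41.9, 38.8 and 39.8 CPM, with a log2 fold change of 1.13 (adjusted p = 4.5e-07). Both subtractions assume that macrophage RNA has the BMDM profile at 24 h. A share read from Cd14 or Cx3cr1 alone would cover the whole rise in replicates 1 and 3, and the part of such RNA beyond these subtractions was not tested.

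**Figure D3:**
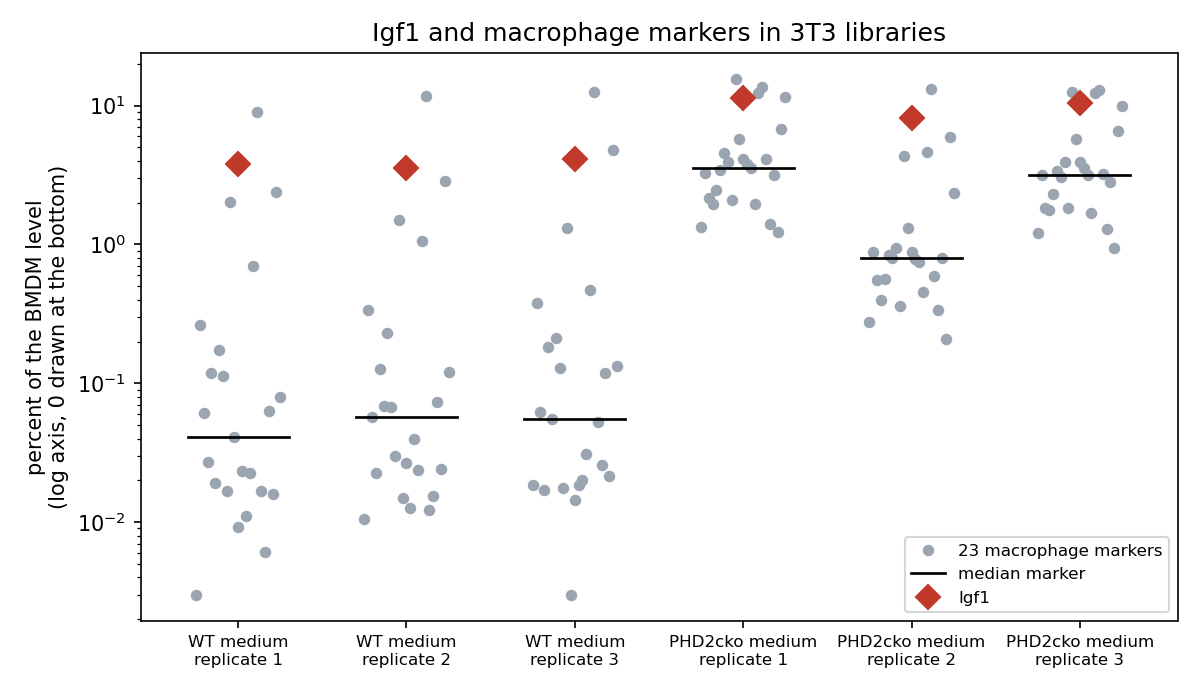
Level of Igf1 (diamonds) and of 23 macrophage markers (grey points, black line at their median) in each of the 6 fibroblast libraries (x axis), as percent of the level in BMDMs of the same label (y axis, log scale, 0 drawn at the bottom). Igf1 lies near 4% in WT medium and at 11.3, 8.12 and 10.5% in PHD2cko medium, where the median marker lies at 3.57, 0.797 and 3.19%.

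Igfbp4 was at 110, 90.7 and 93.4 CPM in WT medium and at 75.6, 65.1 and 74.7 CPM in PHD2cko medium. All 3 libraries in PHD2cko medium lay below all 3 in WT medium. The log2 fold change was -0.45 (SE 0.0729, adjusted p = 0.00135, edgeR), and it ran from -0.50 to -0.33 when any 1 library was left out. Igfbp4 was higher in BMDMs than in fibroblasts, and with the macrophage share subtracted its log2 fold change was -0.47.

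The other binding proteins did not pass the test. Igfbp6 was at 294, 250 and 236 CPM in WT medium and at 228, 230 and 223 CPM in PHD2cko medium, without overlap (log2 fold change -0.20, SE 0.0651, adjusted p = 0.0604, edgeR). Igfbp5 was at 93.2, 101 and 152 CPM and at 140, 150 and 127 CPM, which overlapped (0.27, SE 0.146, adjusted p = 0.248). Igfbp7 was at 24.8, 18.7 and 17.5 CPM and at 24.5, 22.5 and 20.4 CPM, which overlapped as well (0.14, SE 0.151, adjusted p = 0.574). Summed per kb of the longest coding transcript, the binding protein message was 296 ± 29.0 in WT medium and 265 ± 5.95 in PHD2cko medium, while the ligand sum was 247 ± 35.2 and 404 ± 36.0 CPM per kb (SD, n = 3). With the median coding transcript the binding protein sum was 403 ± 40.3 and 343 ± 7.32, and the ligand sum 475 ± 66.9 and 787 ± 65.4 CPM per kb. Most of the ligand sum was Igf2.

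The receptors overlapped between the media. Igf1r was at 166, 208 and 226 CPM in WT medium and at 170, 185 and 168 CPM in PHD2cko medium (log2 fold change -0.20, SE 0.0901, 95% interval -0.39 to 3.6e-05, adjusted p = 0.171, edgeR). Igf2r was at 425, 607 and 664 CPM and at 554, 588 and 552 CPM (-0.0021, SE 0.118, 95% interval -0.26 to 0.25, adjusted p = 0.998). Replicate 1 in WT medium was the lowest library for both.

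Single libraries in WT medium decided calls among these 5 genes. Without replicate 1 in WT medium, the library that stood apart, Igf1r (-0.29, adjusted p = 0.0013) and Igf2r (-0.15, adjusted p = 0.0293) were called lower. Without replicate 3 in WT medium, Igfbp5 was called higher (0.51, adjusted p = 0.0038) and Igfbp6 lower (-0.26, adjusted p = 0.0149). Either way 5 of the 8 were called, where 2757 and 2094 genes were called in all without replicate 1 and without replicate 3, in place of 2240. Igf1, Igf2 and Igfbp4 were among them in all 12 fits with 1 library removed.

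**Figure D4:**
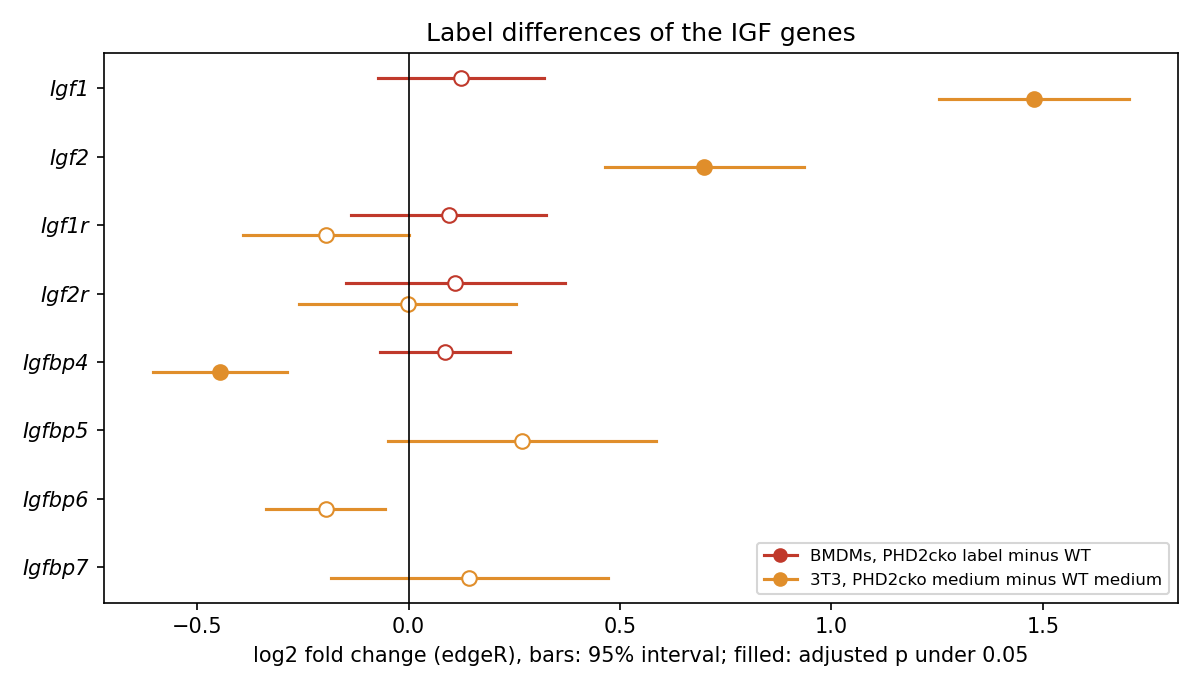
Log2 fold change (x axis, edgeR, bars 95% intervals) for the PHD2cko label in BMDMs (red) and for PHD2cko against WT medium in 3T3 fibroblasts (orange), by gene (y axis), filled where the adjusted p is under 0.05. The BMDM values of Igf2, Igfbp5, Igfbp6 and Igfbp7 are left out because their counts there were 12 or fewer. Igf1 (1.48), Igf2 (0.70) and Igfbp4 (-0.45) in fibroblasts are filled, and no value in BMDMs is.

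The fourth comparison tested whether the label effect differed between fibroblasts and macrophages, as an interaction over all 12 libraries. It could be made for the 4 genes with more than 12 counts per BMDM library and was called for 2 of these, on a background of 12.3% of all tested genes. For Igf1 the effect in fibroblasts exceeded that in macrophages by 1.36 on the log2 scale (SE 0.137, adjusted p = 0.000121, edgeR). For Igfbp4 the difference was -0.53 (SE 0.101, adjusted p = 0.00404, edgeR), with -0.45 in fibroblasts and 0.09 in macrophages. For Igf1r (-0.29, adjusted p = 0.218) and Igf2r (-0.11, adjusted p = 0.744) it was not called, although without replicate 1 in WT medium both were. Igf2, Igfbp5, Igfbp6 and Igfbp7 cannot be compared in this way, and Igf2 was under the floor of 3 counts in each BMDM library.

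Around these genes, 16 regulators of the axis were counted, of which 12 were tested (Igfbp1, Igfals, Igfbpl1 and H19 were not). In BMDMs 2 rose and 0 fell with the label, where 3.38% of all tested genes were called higher and 3.35% lower. The median log2 fold change was 0.18 over the 12 and 0.00022 over all tested genes, but 8 of the 12 had at most 13 counts in any BMDM library. Both that rose were IGF2 mRNA-binding proteins, which hold and stabilise messages such as that of Igf2 and do not bind the peptide. Igf2bp2 was at 13.1, 13.7 and 12.4 CPM in WT and at 23.6, 23.2 and 20.1 CPM in PHD2cko (log2 fold change 0.77, SE 0.0693, adjusted p = 2.3e-05, edgeR). Igf2bp3 was at 1.49, 1.57 and 1.95 CPM and at 2.67, 2.73 and 3.20 CPM (0.78, SE 0.137, adjusted p = 0.0036), from 23 to 61 counts per library. In fibroblasts, where both are higher, the group means in WT and PHD2cko medium were 91.9 and 95.3 CPM (Igf2bp2, adjusted p = 0.550) and at 57.2 and 55.7 CPM (Igf2bp3, adjusted p = 0.683). The difference between the effects in fibroblasts and BMDMs was -0.71 for Igf2bp2 (adjusted p = 0.000303) and -0.82 for Igf2bp3 (adjusted p = 0.00269).

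In fibroblasts 0 of the 12 regulators rose and 1 fell (8.93% and 6.75% of all tested genes), with a median log2 fold change of -0.07. The one that fell was Stc2, a stanniocalcin and inhibitor of PAPP-A. It was at 26.3, 28.5 and 28.1 CPM in WT medium and at 18.4, 18.5 and 20.7 CPM in PHD2cko medium (-0.52, SE 0.0855, adjusted p = 0.00228, edgeR), and at 0 to 1 counts in BMDMs. The protease gene itself, Pappa, was at 129 and 126 CPM (adjusted p = 0.899). Pappa was chosen for this mention after its values were seen. Regulators such as Ghr, Pappa, Stc2 and Igf2bp1 had few counts in BMDMs and passed the filter through the fibroblasts, so no count of calls between the cell types is given for them.

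Of 27 genes of IGF receptor signalling (insulin receptor substrates, PI3K, AKT, mTOR and FOXO genes), all were tested. In BMDMs 0 were called higher and 0 lower, where 3.38% and 3.35% of all tested genes were, and nothing is read from this count. The median log2 fold change was 0.0066. In fibroblasts the median was -0.03, and Pik3cb rose, where 8.93% of all tested genes were called higher. Pik3cb, a catalytic subunit of PI3K, was at 21.5, 25.2 and 24.6 CPM in WT medium and at 35.7, 32.7 and 34.8 CPM in PHD2cko medium (0.53, SE 0.0640, adjusted p = 0.00023, edgeR). Pik3cb was at 78.1 to 88.9 CPM in BMDMs. Irs1 and Grb10 had at most 4 counts in any BMDM library and passed the filter through the fibroblasts. No count of calls between the cell types is therefore given for this list. The interaction was called for Pik3cb (0.43, adjusted p = 0.00563, edgeR) and no other gene of the list, on a background of 12.3% of all tested genes.

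The genes whose log2 CPM followed most closely those of the 3 called genes over the 6 fibroblast libraries are given as a description, out of 12467 genes with at least 1 CPM. For Igf2 they were Sema7a (Pearson r = 0.997), Rgma (0.996) and Camk2d (0.991). For Igfbp4 they were Psap (r = 0.9995), Got1 (0.999) and Ak1 (0.998). For Igf1 they were Rbpj (r = 0.999), Mpeg1 (0.996) and Pik3r5 (0.996), of which Mpeg1 is 1 of the 23 macrophage markers and Pik3r5 was of macrophage type by the same 10-fold limit. All these genes share the split of the 6 libraries by medium and the differences in depth between those libraries.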

How the data were processed

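RNA was sequenced as single reads from polyA RNA of 12 libraries in 4 groups of 3. The authors deposited estimated counts per gene, made with kallisto on GRCm38 and summed to genes, without normalization. The deposited values are whole numbers, and how the estimates were rounded is not stated. All columns were mapped by their sample titles.

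Counts were analysed with edgeR 4.0.16 in R 4.3.3. Genes kept by filterByExpr (14285, with 18259 left out) were TMM-normalized and fitted with the quasi-likelihood model over all 12 libraries, with two-sided tests and Benjamini-Hochberg adjustment over all genes kept at 0.05. CPM and floors of genes use the effective library size. Marker sums, shares and percents of the BMDM level use the total count. A gene was of macrophage type at 10 times the CPM in BMDMs or more, relative to fibroblasts in WT medium. Subtraction removed from each fibroblast library the mean BMDM profile of that label, scaled by its share. Floors cover counting error only. The fit was tested on simulated data with known fold changes.

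Alternatives were DESeq2's size factors, the Wald test of DESeq2 1.42.0, limma 3.58.1 with voom, both filters, each cell type alone, the replicate block, 12 fits leaving out a library, and subtraction or removal of macrophage-type RNA. Gene positions come from GENCODE M21 and promoter windows from RefSeq. All 10 members were named. Of the regulator and signalling lists, genes past the threshold without overlap of the groups were named. The members and lists were chosen with earlier results of these data known. A further allele shared by the mice and the result for a gene of the signalling list are not reported here.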

Additional observations from a re-analysis of the deposited data

Results flagged for a closer look

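The label effect of Igf1 differed between fibroblasts and macrophages by the interaction test. It was 1.48 on the log2 scale in fibroblasts and 0.12 in BMDMs, a difference of 1.36 (SE 0.137, adjusted p = 0.000121, edgeR), and all 3 libraries labelled PHD2cko lay above all 3 WT libraries in both cell types. With the macrophage share subtracted the difference was 1.14 from the summed markers and 1.01 from the median marker.

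The label effect of Igfbp4 differed as well, by -0.53 (SE 0.101, adjusted p = 0.00404, edgeR), from -0.45 in fibroblasts to 0.09 in BMDMs. All 3 libraries labelled PHD2cko were below WT in fibroblasts and above WT in BMDMs.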

How the results depend on the processing

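Over the alternatives for the single genes, 593 values kept their direction and side of the threshold, 9 became called, 0 lost a call and 15 changed sign, all of them uncalled values of Igf2r. The 593 include values of Igf2, Igfbp5, Igfbp6 and Igfbp7 in comparisons that involve BMDMs. Those values either had to differ or were too low to compare, so nothing is read from the total. In fibroblasts Igf2r was at -0.0021, and it was 0.00874 with DESeq2's size factors, 0.00879 with the DESeq2 Wald test, 0.0238 with limma-voom, 0.00893 with at least 10 counts, 0.00145 without a filter, 0.00846 with the 6 libraries alone, 0.0221 with the replicate block, 0.0208 and 0.0297 with the macrophage share subtracted from summed markers and median marker, and 0.0158 without genes of macrophage type. Leaving out 1 library it ran from -0.15 to 0.13, and its interaction from -0.26 to 0.0174. Igf1 in fibroblasts ran from 1.13 to 1.60, Igf2 from 0.63 to 0.81 and Igfbp4 from -0.50 to -0.33. With the 6 libraries of a cell type alone, 2534 genes in place of 961 and 3 in place of 0 of the 4 genes with more than 12 counts were called in BMDMs, and 912 genes in place of 2240 in fibroblasts. With at least 10 counts in every library, Igf2, Igfbp5 and Igfbp7 were not tested between cell types, and Igf1, Igf1r, Igf2r and Igfbp4 kept their calls. Without genes of macrophage type, 2 in place of 3 were called in fibroblasts, since Igf1 was removed.

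Leaving out 1 library each, genes called ran from 527 to 1889 in BMDMs, 1260 to 2757 in fibroblasts, 11952 to 12448 between cell types and 1272 to 2316 in the interaction. Of the 4 genes with more than 12 counts per BMDM library, 0 were called in BMDMs in each fit and 2 to 4 in the interaction, and of the 8, 3 to 5 were called in fibroblasts. The most BMDM calls came without replicate 1 of the fibroblasts in WT medium, and the fewest fibroblast calls without replicate 3 in PHD2cko medium. A fit that leaves a group with 2 libraries takes its spread from all groups.

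The replicate numbers gave no sign of pairing, although 3 libraries per group cannot exclude it. Deviations of same-numbered libraries correlated at -0.0247, 0.00507 and 0.0235 in BMDMs and at 0.0397, 0.0418 and -0.0822 in fibroblasts. With the replicate block, 817 genes were called in BMDMs, 1859 in fibroblasts, 11281 between cell types and 1438 in the interaction. No call changed among the 8 in fibroblasts, or for Igf1, Igf1r, Igf2r and Igfbp4 in the other comparisons. Depth limits Igfbp2, Igfbp3 and, in BMDMs, Igf2 and Igfbp5 to Igfbp7.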
